A study of Mus musculus with 4 samples.

Results

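Described here are 10 genes that steer mesenchymal and cardiac cells to fates other than skeletal muscle, followed through the differentiation of C2C12 cells. They were taken from a list of names: Runx2, Sp7, Spp1 and Runx1 for bone, Sox9 for cartilage, Pparg, Ppara and Cebpb for fat, and Gata4 and Nkx2-5 for heart. C2C12 is an established mouse skeletal myoblast line, labelled C57BL/6, that leaves the cell cycle and fuses into myotubes once serum is lowered. Polyadenylated RNA was sequenced as paired ends in 4 libraries, 1 per time point: cells growing exponentially in high serum (-24 h, called growth), and cells 60 h, 120 h and 168 h after the change to low-serum medium. All 4 libraries come from this 1 line, with no genetic change or added factor named in the labels. Of the 10 genes, 8 could be recognised among the 12948 genes named in the assembled transcripts, and all 8 exceeded 1 FPKM in at least 1 library. Cebpb has no intron and was followed by its position alone. No transcript of Ppara was recognised.

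Runx2 and Sp7 are transcription factors of the osteoblast, and Runx2 acts upstream of Sp7 in bone. Spp1 encodes osteopontin, a secreted phosphoprotein of bone matrix and of many migrating cells that binds integrins and CD44. Pparg, a nuclear receptor, and the C/EBP factors drive the formation of fat cells, while Gata4 and Nkx2-5 bind each other on heart genes. C2C12 cells are known to turn toward the osteoblast when bone morphogenetic proteins are added to them.

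The libraries held 28513976, 48228887, 24488681 and 43845262 fragments in growth and at 60, 120 and 168 h, so the 120 h library was the shallowest. Levels are given as FPKM, the fragments on a transcript for its length and for the size of the library. The sign ± stands before the distance to the deposited confidence limit, which covers no variation between cultures. With a single library per time point nothing was tested, and every contrast sets 1 library against another. The words rose and fell are kept for summed FPKM that passed a size rule: log2(FPKM + 1) differing by 2-fold or more, 1 FPKM or more in the higher library, and limits apart. Low genes change by more than this scale shows. A sum counts a gene more than once where it was assembled in pieces, so the FPKM carried through the gene's introns is given beside it. The latter is a median over introns, and it reads low where alternative introns divide a gene. By both measures means that the introns passed the same rule. In bulk RNA, fewer cells of a type and less RNA per cell cannot be told apart. All 8 markers of skeletal muscle cells were assembled in every library, and their summed level was 707, 8563, 12172 and 11667 FPKM in growth and at 60, 120 and 168 h.

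At 60 h against growth, 5 of the 8 assembled factors fell and 0 rose. Runx2, Sp7, Spp1 and Pparg fell by both measures, and Nkx2-5 fell by the sum alone. Over all 12616 genes compared, 15.5% fell and 11.1% rose by the sum, and 9.09% fell and 7.37% rose by both measures. The 8 factors had a median log2 ratio of -1.43, and all genes one of -0.18. At 168 h against growth 4 fell and 0 rose, of which Runx2, Spp1 and Pparg fell by both measures. Sp7 had no spliced value at 168 h. Over all genes 18.5% fell and 15.5% rose at 168 h, and 13.6% fell and 11.2% rose by both measures.

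The steps between the low-serum libraries gave calls by the sum alone. At 120 h against 60 h, Runx2, Gata4 and Sox9 rose by the sum, 3 of 8, and 0 of them rose by both measures. Over all genes 12.4% rose and 3.91% fell by the sum, and 2.87% rose and 2.08% fell by both measures. At 168 h against 120 h, Runx2 and Pparg fell by the sum, 2 of 8, and 0 of them by both measures. Over all genes 10% fell and 4.17% rose by the sum, and 2.58% fell and 2.23% rose by both measures.

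**Figure D1:**
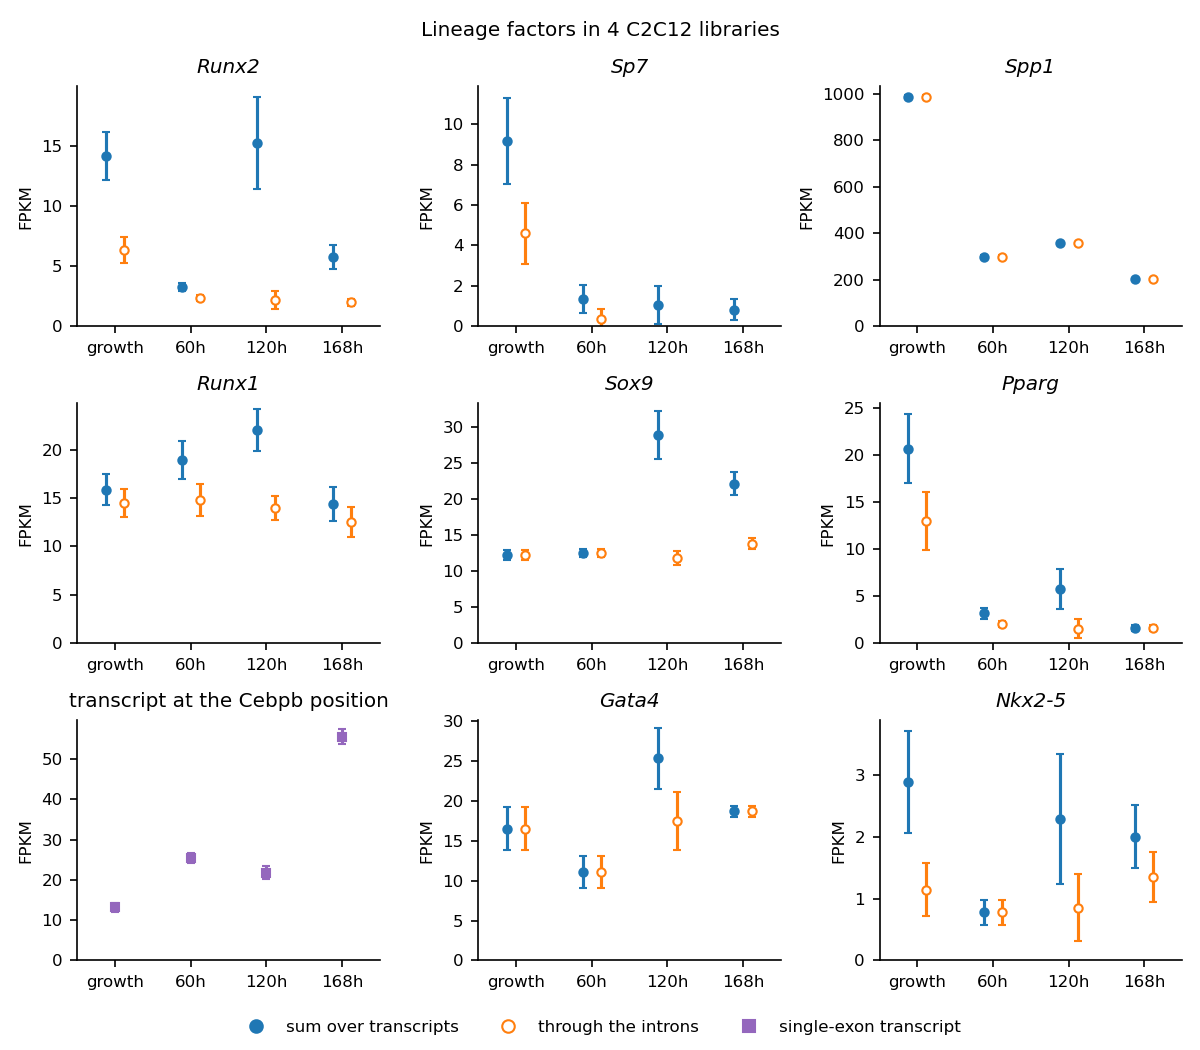
Level in FPKM (vertical axes, linear, from 0) of 8 lineage factors and of the transcript at the Cebpb position in the 4 libraries (horizontal axes), with bars to the deposited limits. Filled circles are sums over transcripts, open circles the FPKM through the introns, and squares a single-exon transcript; the 2 measures of Runx2 part at 120 h, 15.3 against 2.19 FPKM.

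Runx2 (chromosome 17, 44632966 to 44873925 in the coordinates of the files, minus strand) carried 6.37 ± 1.06, 2.34 ± 0.253, 2.19 ± 0.773 and 1.99 ± 0.327 FPKM through its introns in growth and at 60, 120 and 168 h. Growth stood above the 3 low-serum libraries, and these 3 overlapped one another. As plain ratios of FPKM through the introns, the level was 2.73-fold lower at 60 h and 3.20-fold lower at 168 h than in growth. Alternative introns lower this median, most of all in growth. The first intron of 10331 bases, held by all full-length transcripts, carried 12.7 ± 1.51 FPKM in growth. It carried 3.27 ± 0.312, 4.49 ± 1.27 and 3.16 ± 0.402 FPKM at 60, 120 and 168 h. The sum over transcripts was 14.2 ± 2.00, 3.27 ± 0.312, 15.3 ± 3.85 and 5.81 ± 1.0 FPKM in the same order, which is 4.35-fold lower at 60 h than in growth. The summed log2 ratio of 168 h to growth, -1.16, was -0.98 after median-ratio rescaling, under the rule. At 120 h the sum added up 7 transcripts, 4 of them with a single exon, the highest of which was 89 bases long with 13 fragments and 5.96 FPKM. Fragments over the union of its exons gave 7.36, 2.40, 2.49 and 2.05 FPKM in growth and at 60, 120 and 168 h, so the rise of the sum at 120 h was not seen there.

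Runx2 was assembled in several isoforms. An exon of 174 bases downstream of the runt domain was kept in 56.2 ± 5.83%, 71.5 ± 4.57%, 32.7 ± 9.96% and 36.9 ± 6.04% of the FPKM that kept or skipped it in growth and at 60, 120 and 168 h. The share at 60 h stood above that in growth and those at 120 h and 168 h below it, with limits apart, and the shares at 120 h and 168 h overlapped. At 120 h the exon was held by 1 spliced transcript, which began inside it. A 66-base exon was kept in 52.5 ± 6.65% in growth and 47.5 ± 13.4% at 120 h, and in all transcripts that reached the proximal last exon at 60 h and 168 h. A distal last exon, reached by an intron of 142421 bases that the annotation lacks, took 16.5 ± 3.97%, 28.5 ± 4.57%, 37.7 ± 11.1% and 36.9 ± 6.04% of transcript ends in growth and at 60, 120 and 168 h. Its share was higher in each low-serum library than in growth, with limits apart. At 60 h and at 168 h only 2 spliced transcripts were assembled. The shares of the 174-base exon and of the distal last exon in those libraries are therefore the same ratio, and do not count as separate differences. The 66-base exon was held there by the only transcript that reached the proximal last exon. These choices were picked after the transcripts had been seen, and at 120 h they rest on transcripts of 44 to 55 fragments. No assembled transcript in any library crossed the introns of 78550 and 89267 bases behind the distal promoter, and the full-length ones started at the proximal promoter. The antisense gene Runx2os1, which lies over that start, was assembled at 5.10 ± 1.56, 2.24 ± 0.830, 1.21 ± 0.607 and 0.472 ± 0.253 FPKM in growth and at 60, 120 and 168 h. The protocol marks no strand, so fragments where the genes overlap cannot be assigned to either.

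Runx1 has an exon in the same place as the 174-base exon of Runx2, and both were partly skipped here. The 3 exons are shown because the isoform values above and below turn on them. All are coding, in the GENCODE annotation of GRCm38, minus strand, at chr16:92644154-92644345, chr17:44658519-44658692 and chr17:44610028-44610093. Capitals mark the exon and lower-case letters the bases of the neighbouring exons in the transcript.
Runx1 192-base exon: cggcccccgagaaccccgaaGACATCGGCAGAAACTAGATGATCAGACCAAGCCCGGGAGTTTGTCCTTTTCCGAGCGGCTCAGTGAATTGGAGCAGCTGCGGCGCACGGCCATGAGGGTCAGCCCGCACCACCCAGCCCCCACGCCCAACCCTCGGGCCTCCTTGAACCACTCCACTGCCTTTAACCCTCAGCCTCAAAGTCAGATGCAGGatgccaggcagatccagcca
Runx2 174-base exon: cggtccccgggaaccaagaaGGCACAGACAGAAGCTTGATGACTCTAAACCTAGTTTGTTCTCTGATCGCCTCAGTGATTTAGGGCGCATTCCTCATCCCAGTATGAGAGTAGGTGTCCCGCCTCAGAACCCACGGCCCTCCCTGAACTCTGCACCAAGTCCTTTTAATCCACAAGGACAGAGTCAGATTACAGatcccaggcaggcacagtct
Runx2 66-base exon: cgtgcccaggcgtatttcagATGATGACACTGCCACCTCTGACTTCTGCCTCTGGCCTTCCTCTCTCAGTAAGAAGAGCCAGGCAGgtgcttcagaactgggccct
Aligned end to end, these exons of Runx1 (192 bases) and Runx2 (174 bases) were identical at 114 of 167 aligned bases, or 68.3%.

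Sp7 (chromosome 15, 102187085 to 102197382, minus strand), whose product osterix is needed for bone formation, summed to 9.19 ± 2.13 FPKM in growth. It summed to 1.35 ± 0.684, 1.06 ± 0.947 and 0.831 ± 0.538 FPKM at 60, 120 and 168 h. Growth stood alone, and the low-serum libraries overlapped. Its level was 6.79-fold lower at 60 h than in growth and 11.1-fold lower at 168 h than in growth by the sum, and 24.8-fold and 42.5-fold lower over the union of exons. Through the introns it had 0.389 ± 0.449 FPKM at 60 h, from 3 fragments, against 4.59 ± 1.49 FPKM in growth. The growth value is a mean over 2 alternative introns and reads low, as the union of exons gave 8.80 ± 2.05 FPKM. At 120 h and 168 h only single-exon pieces of 2 to 5 fragments each remained. In growth 766 fragments lay in 3 transcripts with 2 first splice donors, 59.7 ± 11.0% of the FPKM starting at one and 40.3 ± 11.0% at the other. One of the 3 transcripts held a further intron of 476 bases, seen again at 60 h, that the annotation lacks.

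Spp1 (chromosome 5, 104864051 to 104870403, plus strand) was the most abundant of the 8, with 985 ± 8.69, 298 ± 7.73, 358 ± 6.53 and 204 ± 3.41 FPKM in growth and at 60, 120 and 168 h. All 4 ranges stood apart. The level was 3.30-fold lower at 60 h than in growth, 1.20-fold higher at 120 h than at 60 h, which is under the size rule, and 4.82-fold lower at 168 h than in growth. It was assembled as 1 transcript of 6 introns in growth, at 120 h and at 168 h. At 60 h a second transcript without the first exon took 7.53 ± 1.55% of the FPKM. Of the 50-base words sampled from Spp1, 6.30% also occur in Gm42793, an annotated gene at the same place.

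The 250 bases before the start of Spp1 are shown because it is the most abundant of the factors and a known target of runt-domain factors. The sequence is from RefSeq (GRCm38.p6, plus strand, chr5:104434861-104435110), and capitals mark matches on either strand to the TATA word TATAAA, to the word bound by runt-domain factors, TGTGGT, and to the word of nuclear factor Y, CCAAT. These windows were also searched for the Sp factor word GGGCGG, the E-box CAGCTG of myogenic factors and TTNNGNAA as a core word of C/EBP factors.
Spp1 promoter: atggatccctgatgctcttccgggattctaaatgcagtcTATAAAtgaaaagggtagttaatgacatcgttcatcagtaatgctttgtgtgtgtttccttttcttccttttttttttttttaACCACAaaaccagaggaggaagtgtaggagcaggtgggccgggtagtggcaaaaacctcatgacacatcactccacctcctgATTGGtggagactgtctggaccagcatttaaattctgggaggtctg
Each of the 3 words marked occurs once, the runt and nuclear factor Y words on the opposite strand, and none of them overlap. Of 32851 RefSeq promoter windows of the same length, 12.4% hold the TATA word, 14% the runt word and 33.8% the nuclear factor Y word. The other 3 words are not in this window; 32.7% of windows hold the Sp word, 13% the E-box and 36.8% the C/EBP word.

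Runx1 (chromosome 16, 92605424 to 92826334, minus strand), the runt factor of blood formation that is also made in myoblasts, was near level. Through the introns it had 14.5 ± 1.46, 14.8 ± 1.64, 14.0 ± 1.22 and 12.5 ± 1.55 FPKM in growth and at 60, 120 and 168 h, and all 4 ranges overlapped. The sums were 15.8 ± 1.60, 18.9 ± 1.98, 22.0 ± 2.14 and 14.4 ± 1.73 FPKM, and the gene passed the size rule in 0 of the 4 comparisons. Its log2 ratio at 60 h against growth was 0.03 through the introns, where that of Runx2 was -1.14.

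The promoters of Runx1 were not used alike in the libraries. Transcripts from the distal first exon made up 38.4 ± 5.03% of the FPKM in growth, 58.4 ± 4.75% at 60 h and 64.1 ± 5.48% at 168 h. The 2 low-serum shares overlapped, and both stood above growth. In growth 8.39 ± 3.81% lay in a 3-exon piece of 44 fragments that began inside a later exon and reached neither promoter. That piece is part of the whole in growth and lowers the distal share there. Transcripts from the distal start had 11.0 ± 1.78 FPKM at 60 h, against 6.09 ± 1.06 FPKM in growth, and those from the proximal start 7.86 ± 0.864 FPKM at 60 h, against 8.43 ± 1.01 FPKM in growth. At 120 h all spliced transcripts began at the distal exon, with 16.3 ± 1.57 FPKM, and the proximal first exon was covered by an unspliced piece of 438 bases with 5.69 ± 1.46 FPKM. A share for 120 h set beside the others would therefore leave that piece out. The 192-base exon was kept in 91.6 ± 3.81%, 78.5 ± 4.98%, 85.5 ± 5.28% and 87.3 ± 4.77% of the FPKM in growth and at 60, 120 and 168 h. The share at 60 h lay below that in growth with limits apart, and those at 120 h and 168 h overlapped both.

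Both Runx1 promoters are shown since the start site was the part of this gene that differed. They are from RefSeq (GRCm38.p6, minus strand), the distal one at chr16:92826150-92826324, which is cut to the part outside annotated exons, and the proximal one at chr16:92697330-92697579. Capitals mark matches on either strand to the 6 words named for Spp1.
Runx1 distal promoter: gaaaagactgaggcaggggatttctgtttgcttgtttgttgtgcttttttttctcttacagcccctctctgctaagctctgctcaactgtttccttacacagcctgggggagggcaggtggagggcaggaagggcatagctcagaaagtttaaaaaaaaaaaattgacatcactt
Runx1 proximal promoter: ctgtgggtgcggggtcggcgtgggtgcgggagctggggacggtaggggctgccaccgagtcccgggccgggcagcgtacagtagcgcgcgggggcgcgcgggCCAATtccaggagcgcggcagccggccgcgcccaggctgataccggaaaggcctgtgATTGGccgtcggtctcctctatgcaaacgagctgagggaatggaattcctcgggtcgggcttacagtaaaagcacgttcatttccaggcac
The distal window of 175 bases holds none of the 6 words. The proximal window holds the nuclear factor Y word CCAAT 2 times, once on each strand, as 33.8% of all windows of 250 bases hold it at least once.

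**Figure D2:**
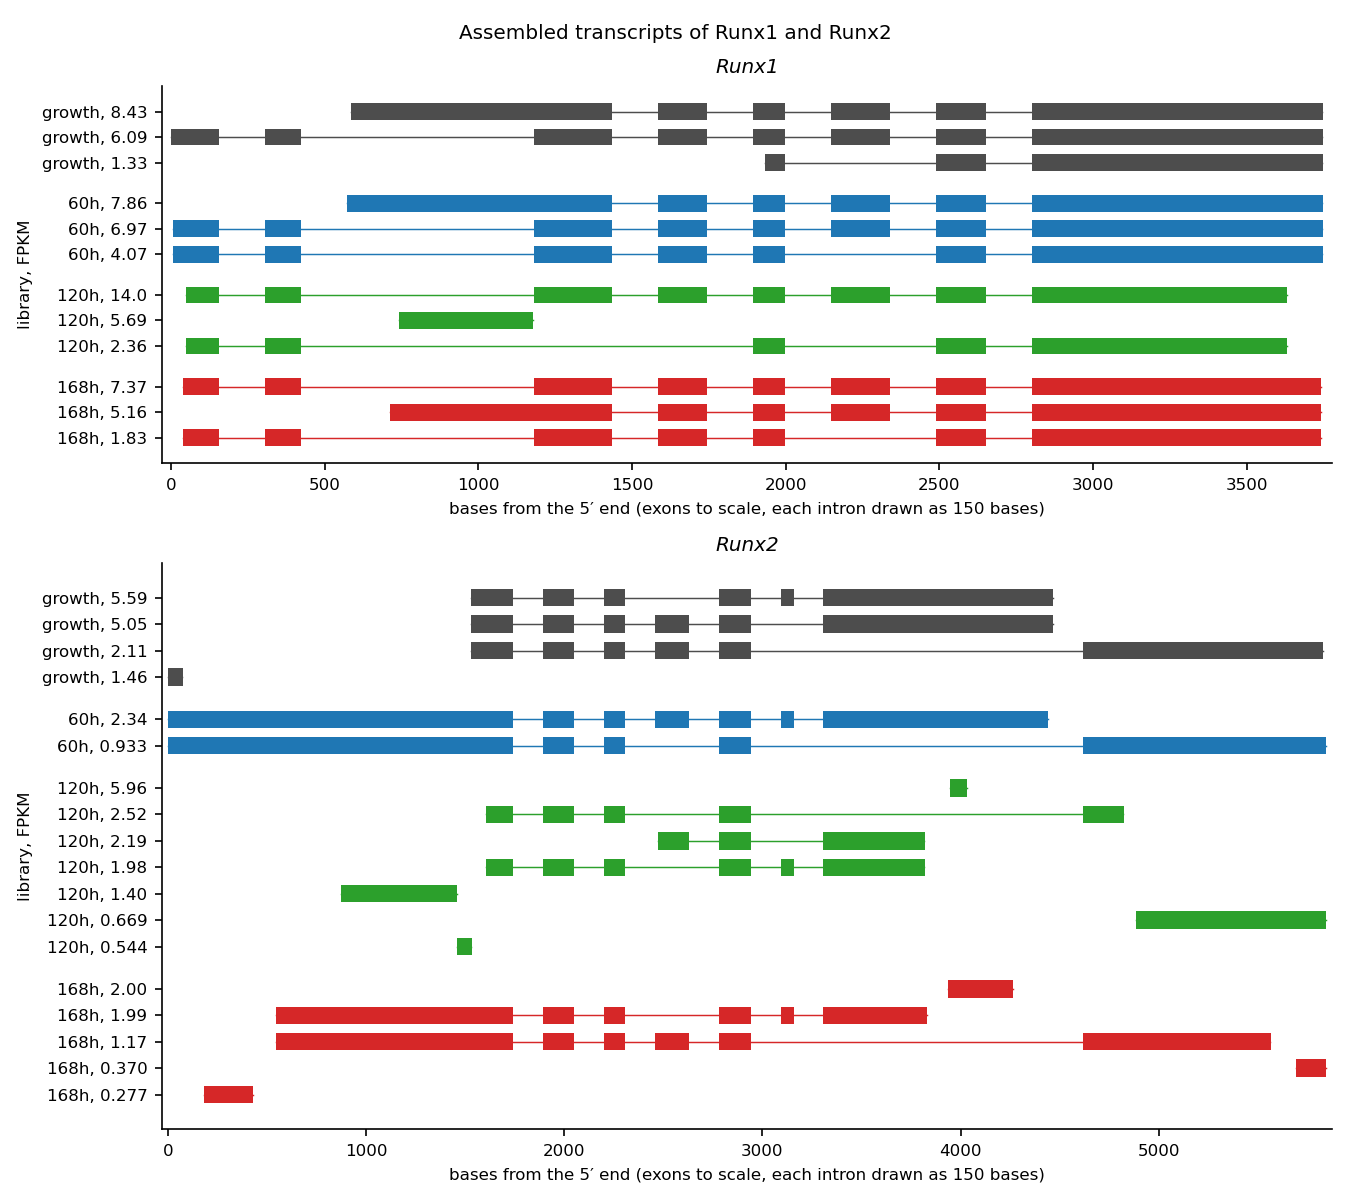
Transcripts of Runx1 (top) and Runx2 (bottom) as assembled in each library, 1 per line, with library and FPKM on the vertical axis and exons drawn to scale along the horizontal axis in bases from the 5′ end, each intron being drawn as 150 bases. Boxes are exons, colours are libraries, and the lone boxes are single-exon pieces, of which Runx2 has 4 at 120 h.

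**Figure D3:**
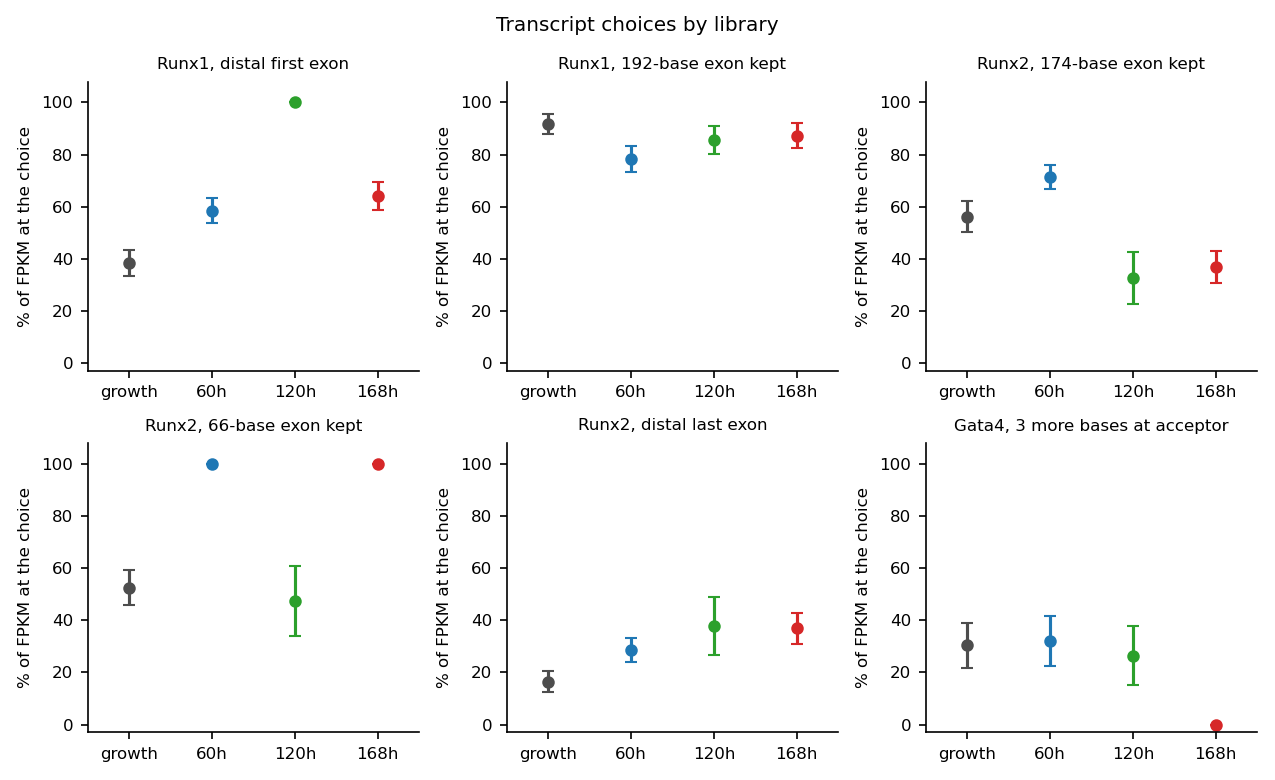
Share of the FPKM at 6 transcript choices (vertical axes, percent) in the 4 libraries (horizontal axes), with bars carried from the deposited limits; points at 0 or 100% have no bar because 1 form alone was assembled. The distal first exon of Runx1 takes 38.4% in growth and 58.4% at 60 h, and the 174-base exon of Runx2 ranges between 32.7% and 71.5%.

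Sox9 (chromosome 11, 112643490 to 112648102, plus strand), the master factor of cartilage, differed little between libraries through its introns. It had 12.3 ± 0.735, 12.5 ± 0.568, 11.8 ± 0.999 and 13.9 ± 0.810 FPKM in growth and at 60, 120 and 168 h. The value at 168 h was the highest: its limits lay just above those of growth and 120 h and met those of 60 h, and it was 1.13-fold higher than in growth, under the rule. The sum was 29.0 ± 3.33 FPKM at 120 h, against 12.5 ± 0.568 FPKM at 60 h. The excess at 120 h lay in pieces of 313 and 245 bases with 1 exon each, at 9.13 and 8.0 FPKM. Over the union of exons Sox9 was 1.12-fold lower at 120 h than at 60 h. By that measure 168 h was the lowest library, with 10.4 ± 0.569 FPKM, against 12.3 ± 0.735 FPKM in growth. Those limits were apart and the difference was under the rule, so the direction at 168 h depends on the measure.

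Of the 26 osteoblast and chondrocyte genes examined beside them, 13 were assembled, 2 rose and 4 fell at 60 h against growth, and 3 rose and 5 fell at 168 h against growth. Their median log2 ratio was -0.60 at 60 h and -0.46 at 168 h, beside -0.18 and -0.11 for all genes. Col1a1, the gene of a type I collagen chain, had 142 ± 3.72 FPKM at 60 h and 165 ± 6.36 FPKM at 168 h, against 7.37 ± 1.67 FPKM in growth. Sparc, the osteonectin gene, had 1706 ± 52.5 FPKM at 168 h, against 578 ± 31.4 FPKM in growth. The homeobox gene Dlx3 fell to 4.27 ± 0.372 FPKM at 60 h and 2.56 ± 0.719 FPKM at 168 h, against 23.3 ± 1.10 FPKM in growth. Twist2, whose product restrains osteoblast maturation, fell to 8.02 ± 0.698 FPKM at 60 h and 3.58 ± 0.504 FPKM at 168 h, against 38.2 ± 2.02 FPKM in growth. The matrix genes Col1a1 and Sparc thus moved opposite to Dlx3 and Twist2. Of 5 markers of differentiated osteoblasts, Dmp1 alone was recognised, at 3.06, 1.64, 3.78 and 1.95 FPKM in growth and at 60, 120 and 168 h, and Bglap, Bglap2, Ibsp and Phex had no recognised transcript. A gene without a recognised transcript may be expressed and unnamed.

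The BMP pathway, through which C2C12 cells can be turned to bone, had 16 of 23 genes assembled. At 60 h against growth 2 rose and 4 fell, all by both measures, and at 168 h 3 rose and 5 fell, of which 0 and 4 did so by both measures. The pathway's median log2 ratio was -0.32 at 60 h and -0.48 at 168 h. Among the inhibitors, Smad6, an inhibitory Smad, fell to 1.03 ± 0.282 FPKM at 60 h, against 11.2 ± 1.01 FPKM in growth. Smad7, another, fell to 3.24 ± 0.520 FPKM at 168 h, against 12.3 ± 0.786 FPKM in growth. Grem1, a secreted BMP antagonist, fell to 15.6 ± 0.808 FPKM at 60 h and 8.63 ± 0.634 FPKM at 168 h, against 70.4 ± 2.23 FPKM in growth. The signal transducer Smad9 had 0.50 ± 0.409 FPKM at 60 h and 5.30 ± 0.760 FPKM in growth. The receptor gene Bmpr1a had 6.40 ± 0.319 FPKM at 60 h and 2.27 ± 0.333 FPKM at 168 h, the latter without a spliced value. The ligand gene Gdf5 had 2.82 ± 1.02 FPKM at 168 h. Neither Bmpr1a nor Gdf5 had a recognised transcript in growth. They are the 2 genes that rose at 60 h, and each was taken as 0 in growth by both measures.

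Of 11 osteopontin receptors and interacting proteins 8 were assembled, and 0 rose and 1 fell at 60 h against growth, while 1 rose and 2 fell at 168 h. Their median log2 ratio was 0.21 at 60 h and -0.26 at 168 h. Cd44, a receptor for hyaluronan and osteopontin, fell to 16.8 ± 0.608 FPKM at 168 h, against 58.9 ± 1.38 FPKM in growth. Itgb5, an integrin chain gene, rose to 121 ± 2.75 FPKM at 168 h, against 50.3 ± 2.23 FPKM in growth. Mmp9, a matrix metalloproteinase that cleaves osteopontin, had 0.883 ± 0.166 FPKM at 60 h and 12.3 ± 3.75 FPKM in growth by the sum, and 0.883 and 1.36 FPKM through the introns. Cd44 thus moved in the direction of Spp1 at 168 h, and Itgb5 in the other.

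Pparg (chromosome 6, 115311094 to 115440400, plus strand), the nuclear receptor of fat cells, fell with the change of serum and stayed low. Through its introns it had 13 ± 3.09, 2.03 ± 0.331, 1.55 ± 1.01 and 1.63 ± 0.277 FPKM in growth and at 60, 120 and 168 h. Growth stood apart from the 3 low-serum libraries, which overlapped. The level was 6.42-fold lower at 60 h than in growth and 7.97-fold lower at 168 h than in growth. The sums were 20.7 ± 3.66, 3.18 ± 0.636, 5.76 ± 2.10 and 1.63 ± 0.277 FPKM in the same order, which is 12.7-fold lower at 168 h than in growth. The 120 h sum came from 3 pieces of 6 to 14 fragments.

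Pparg is known to be read from one promoter in many cells and from a second, Pparg2, in fat. The first intron of Pparg2, 17647 bases, was crossed by 0 transcripts in the 4 libraries, while the 22308-base first intron of Pparg1 carried 7.69, 1.15, 1.81 and 1.63 FPKM in growth and at 60, 120 and 168 h. In growth a second exon of 65 bases was kept in 26.4 ± 12.7% of the long transcripts, and at 168 h the single assembled transcript held it. At 60 h and 120 h no long transcript reached the first exon, so that share has no value there. For the same reason the count of 0 for Pparg2 cannot show in those libraries whether its promoter was used. Short pieces spliced from the first exon into the 65-base exon by the 22308-base intron are left out of the share. They had 7.69 FPKM in growth, 1.15 FPKM at 60 h and 1.81 FPKM at 120 h, and leaving them out lowers the share in growth.

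Cebpb, an early C/EBP factor of fat cell formation, has a single exon and cannot be recognised by introns. Between the genes Tmem189 and Ptpn1, its neighbours on chromosome 2, each library held a single-exon transcript of 1365 to 1539 bases, where the annotated Cebpb has 1504 bases. It began 27532 to 27606 bases from a Tmem189 intron, against 27543 bases in the annotation. Its levels were 13.2 ± 1.13, 25.5 ± 1.17, 21.7 ± 1.61 and 55.5 ± 1.90 FPKM in growth and at 60, 120 and 168 h. The value at 168 h stood above the rest and that of growth below them. By the size rule it rose at 168 h against 120 h, with a log2 ratio of 1.31, where 4.17% of all genes rose, and at 168 h against growth, with a log2 ratio of 1.99, where 15.5% did. At 60 h against growth the log2 ratio was 0.90, under the rule. The next highest transcript of the interval had 1.02 to 3.56 FPKM. This transcript was sought after other values had been seen, its name rests on place and length, and it is left out of the counts above. Of the sampled Cebpb words 17.8% also occur in Tmem189.

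The Cebpb promoter is shown because the transcript at this position rose at 168 h. It is from RefSeq (GRCm38.p6, plus strand, chr2:167688665-167688914), with capitals at matches to the Sp word GGGCGG, 2 of which overlap.
Cebpb promoter: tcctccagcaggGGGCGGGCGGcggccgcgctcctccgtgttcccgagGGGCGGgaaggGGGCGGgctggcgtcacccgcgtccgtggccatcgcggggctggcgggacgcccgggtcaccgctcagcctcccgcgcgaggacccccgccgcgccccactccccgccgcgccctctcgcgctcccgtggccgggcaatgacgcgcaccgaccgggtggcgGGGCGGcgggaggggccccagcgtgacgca
The word occurs 5 times, and 32.7% of all windows of 250 bases hold it at least once. The other 5 words are not in this window.

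For Ppara, the nuclear receptor of fatty acid oxidation, the interval between its neighbours Lncppara and Cdpf1 held 3, 10, 7 and 15 transcripts in growth and at 60, 120 and 168 h. The highest had 1.40, 0.829, 1.63 and 0.912 FPKM, and 1 of them, at 120 h, was spliced. None carried a run of Ppara introns, so no level is given.

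Of 22 adipocyte genes 11 were assembled, of which 3 rose and 1 fell at 60 h against growth, and 5 rose and 0 fell at 168 h, all 5 by both measures. Across them the median log2 ratio was 0.30 at 60 h and 0.81 at 168 h. Lpl, the lipoprotein lipase gene, had 42.5 ± 1.28 FPKM at 168 h, against 3.67 ± 1.31 FPKM in growth. Pnpla2, which encodes the triglyceride lipase ATGL, had 77.2 ± 1.88 FPKM at 168 h, against 25.3 ± 1.33 FPKM in growth, and Srebf1, a regulator of lipid synthesis, had 86.5 ± 4.27 FPKM at 60 h, against 36.4 ± 5.83 FPKM in growth. Cd36, a fatty acid transporter, had 4.78 ± 1.44 FPKM at 60 h and 7.55 ± 2.26 FPKM at 168 h and had no recognised transcript in growth. The factor Klf15 had 1.35 ± 0.227 FPKM at 60 h and 2.78 ± 0.333 FPKM at 168 h, and no recognised transcript in growth. Ebf1, a factor of early fat and B cells, fell by the sum alone, with 2.48 ± 0.320 FPKM at 60 h and 8.73 ± 1.83 FPKM in growth. These genes are not peculiar to fat, since muscle also takes up and burns fatty acids. Of 5 adipocyte markers Fabp4 alone was recognised, at 0.396 FPKM at 120 h and 0.750 FPKM at 168 h, and Adipoq, Plin1, Cidec and Lep had no recognised transcript.

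Of 20 PPAR partners and targets 17 were assembled, and 3 rose and 4 fell at 60 h against growth, with 3 and 3 at 168 h. Their median was 0.09 at 60 h and 0.34 at 168 h on the log2 scale. Angptl4, a secreted lipase inhibitor and textbook PPAR target, fell to 31.2 ± 1.16 FPKM at 60 h and 21.1 ± 1.01 FPKM at 168 h, against 165 ± 3.34 FPKM in growth. Cpt1a, which admits fatty acids to mitochondria, fell to 11.3 ± 0.964 FPKM at 60 h and 18.1 ± 0.559 FPKM at 168 h, against 50.7 ± 1.67 FPKM in growth. Pdk4, a kinase that restrains glucose oxidation, fell to 6.63 ± 0.570 FPKM at 60 h, against 32.6 ± 1.13 FPKM in growth. Fabp3, the fatty acid binding protein of heart and muscle, had 6.45 ± 0.708 FPKM at 168 h. Ucp3, a mitochondrial carrier of muscle, had 14.4 ± 2.65 FPKM at 60 h, from single-exon pieces alone, and 6.08 ± 0.473 FPKM at 168 h. No transcript of Fabp3 or Ucp3 was recognised in growth. The receptors' partner genes Ppard, Rxra and Rxrb were assembled in all 4 libraries, and of these Rxra passed the rule at 168 h, with 26.6 ± 0.718 FPKM, against 11.8 ± 0.596 FPKM in growth, a gene picked after its values were seen.

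Gata4 (chromosome 14, 63817731 to 63864252, minus strand), a zinc-finger factor of heart and endoderm, was present throughout. Through its introns it had 16.5 ± 2.73, 11.0 ± 2.02, 17.5 ± 3.62 and 18.7 ± 0.693 FPKM in growth and at 60, 120 and 168 h. The 60 h value was the lowest, with limits below those of the other 3 libraries, and those 3 overlapped. The sum at 120 h was 25.3 ± 3.81 FPKM, against 11.0 ± 2.02 FPKM at 60 h, and it counts a piece holding the first intron of 3505 bases beside 2 transcripts that lack it. At 168 h against growth the log2 ratio was 0.17 by either measure.

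Gata4 was made with or without 3 coding bases at one splice acceptor. The longer form took 30.4 ± 8.76%, 31.9 ± 9.63% and 26.5 ± 11.2% of the FPKM in growth and at 60 and 120 h, and these ranges overlapped. At 168 h the longer form was not assembled, and the shorter one had 18.7 FPKM from 2912 fragments. The share therefore has no limit at 168 h, and the longer form may be expressed there without having been assembled. The acceptor is shown because the assembled forms differed at 168 h. Capitals mark the 3 bases (GENCODE annotation of GRCm38, minus strand, chr14:63204756-63204758).
Gata4 acceptor: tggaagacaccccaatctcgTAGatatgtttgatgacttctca
The lower-case letters are the 20 bases of transcript on each side.

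Nkx2-5 (chromosome 17, 26975621 to 26978508, minus strand), a homeobox factor of the early heart, was low throughout. Through its single named intron it had 1.15 ± 0.433, 0.777 ± 0.208, 0.854 ± 0.540 and 1.35 ± 0.403 FPKM in growth and at 60, 120 and 168 h. Each value rests on 10 to 56 fragments. All 4 ranges overlapped. The sum was 0.777 ± 0.208 FPKM at 60 h, against 2.89 ± 0.834 FPKM in growth, where a single-exon piece of 482 bases held 1.75 FPKM. The 60 h call of this gene is therefore carried by the sum alone, and its log2 ratio of -1.13 was -0.99 after median-ratio rescaling, under the rule.

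**Figure D4:**
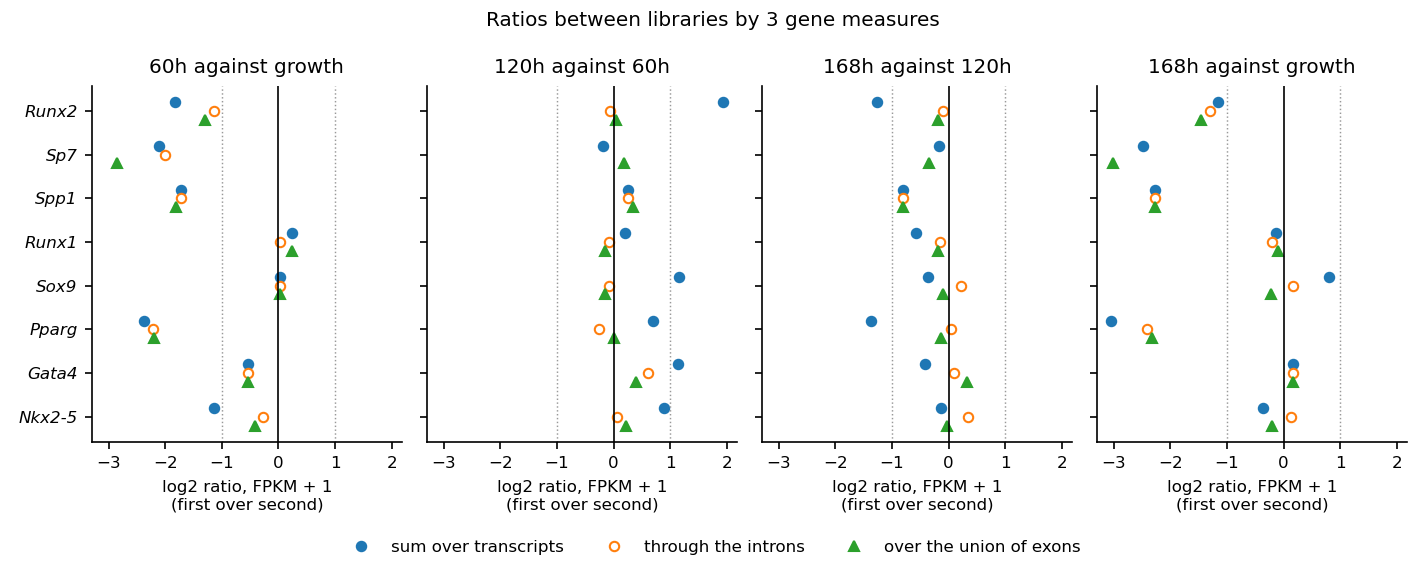
Log2 ratio of FPKM + 1, first library over second (horizontal axes), for the 8 assembled factors (vertical axis) in 4 comparisons by 3 measures, with dotted lines at 2-fold. Runx2, Sp7, Spp1 and Pparg lie left of the 2-fold line at 60 h against growth by all 3 measures, and Runx2 at 120 h against 60 h is at 1.93 by the sum and -0.07 through the introns.

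Of 22 cardiac genes 14 were assembled, and 7 rose and 3 fell at 60 h against growth, 4 and 1 of them by both measures. At 168 h 5 rose and 5 fell, 3 and 1 by both measures. The list had a median log2 ratio of 1.35 at 60 h and 0.45 at 168 h. Actc1, an actin gene of heart and of embryonic skeletal muscle, had 1758 ± 9.51 FPKM at 60 h and 483 ± 5.47 FPKM at 168 h, against 6.92 ± 0.841 FPKM in growth. Myh7, the slow myosin heavy chain gene shared by heart and skeletal muscle, had 63.1 ± 4.39 FPKM at 60 h, against 0.468 ± 0.935 FPKM in growth, and Myh6 had 36.8 ± 4.04 FPKM at 60 h, against 0.934 ± 1.32 FPKM in growth. Both have near-identical relatives among the myosin genes, so their values are uncertain. Tnni3, the cardiac troponin I gene, had 17.2 ± 2.89 FPKM at 60 h, against 0.597 ± 0.422 FPKM in growth. The 60 h value of Tnni3 came from single-exon pieces alone, with no spliced value, and it enters the cardiomyocyte marker sum below. Tnnt2, the cardiac troponin T gene of embryonic muscle, had 1228 ± 15.3 FPKM at 120 h and single-exon pieces alone at 168 h, with 1.08 ± 0.726 FPKM, against 124 ± 8.17 FPKM in growth. No spliced Tnnt2 transcript was recognised at 168 h, so its level there is uncertain, as is its place among the 5 that fell. Of the 5 cardiomyocyte markers Myh6 and Tnni3 were recognised, with a summed level of 1.53, 54.0, 53.6 and 43.4 FPKM in growth and at 60, 120 and 168 h, and Nppa, Myl7 and Tbx5 had no recognised transcript. Neither Gata4 nor Nkx2-5 rose with the shared sarcomere genes at 60 h.

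Of 20 paralogs and partners of the factors 16 were assembled, and 1 rose and 2 fell at 60 h against growth, with 4 and 4 at 168 h, those 8 by both measures. Their median was -0.15 at 60 h and -0.18 at 168 h on the log2 scale. Cbfb, the shared partner of the runt factors, fell to 12.6 ± 0.988 FPKM at 168 h, against 51.6 ± 3.51 FPKM in growth. Runx3, picked after its values were seen as the third runt factor, fell to 7.76 ± 0.466 FPKM at 168 h, against 18.8 ± 0.90 FPKM in growth. Cbfa2t3, a corepressor gene, had 9.15 ± 0.444 FPKM at 60 h and 15.6 ± 0.828 FPKM at 168 h, with no recognised transcript in growth. Gata2, a factor of blood and fat precursors, fell to 6.29 ± 0.405 FPKM at 60 h, against 18.8 ± 0.909 FPKM in growth. Cebpg rose to 23.0 ± 1.41 FPKM at 168 h, against 6.17 ± 0.423 FPKM in growth, and Sp3 fell to 3.08 ± 0.341 FPKM at 168 h, against 12 ± 2.53 FPKM in growth. Of the runt genes and their partner, Runx2, Runx3 and Cbfb were thus lower at 168 h than in growth by both measures, while Runx1 passed the rule by neither.

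**Figure D5:**
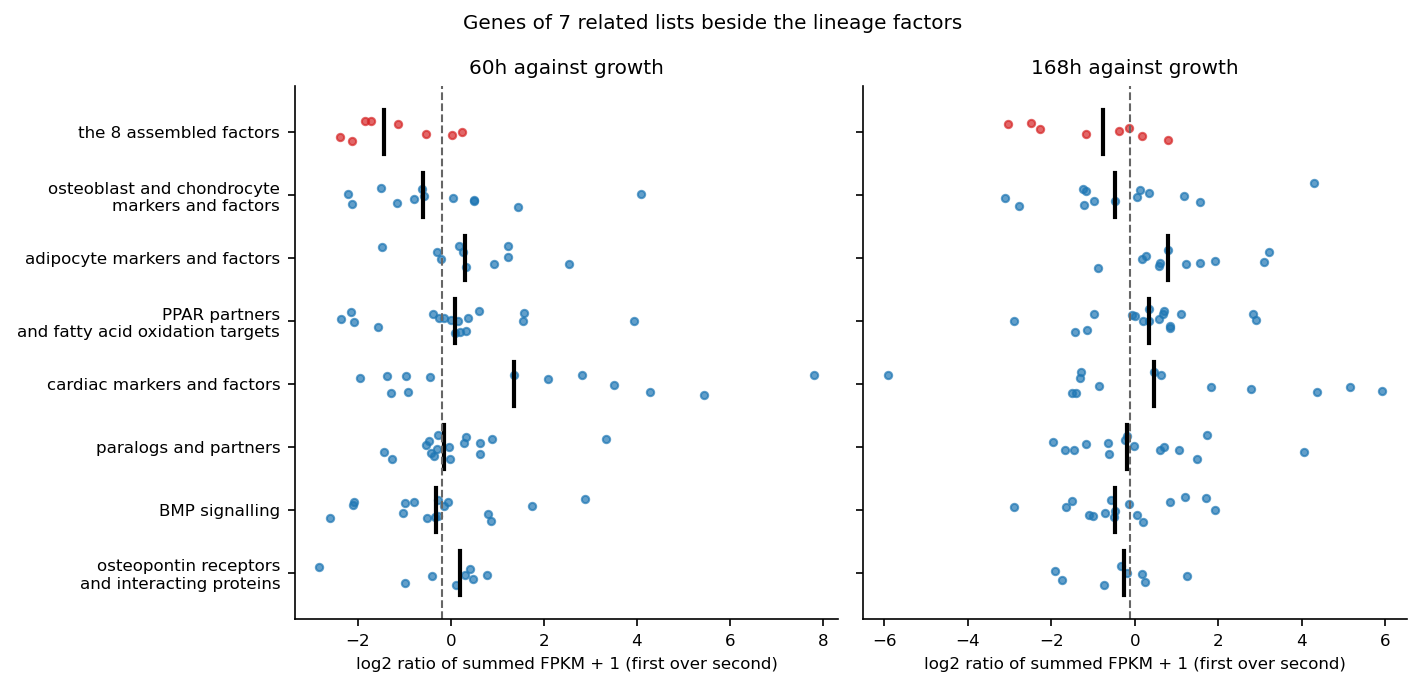
Log2 ratio of summed FPKM + 1 (horizontal axes, first library over second) for each assembled gene of 8 groups (vertical axis) at 60 h against growth (left) and 168 h against growth (right). Points are genes, scattered vertically for clarity, short bars are group medians, and the dashed line is the median of all genes; the factors' median is -1.43 at 60 h, against -0.18 for all genes.

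Markers of cell types that a myoblast culture should lack were low beside those of skeletal muscle. Those of macrophages summed to 1.14, 5.75, 5.11 and 5.63 FPKM in growth and at 60, 120 and 168 h, with 3 of 6 recognised in any library and Ptprc, Adgre1 and Lyz2 in none. Those of endothelium summed to 1.20, 5.67, 10.4 and 6.02 FPKM, with 3 of 4 recognised and Pecam1 in none. Cd68 and Vwf rose by the sum at 60 h and at 168 h against growth, and Itgam at 60 h. Vwf rose by both measures at 168 h, with no recognised transcript in growth. It had 5.34 ± 1.29, 10.4 ± 4.03 and 5.72 ± 1.22 FPKM at 60, 120 and 168 h. Of 4 chondrocyte markers Col10a1 alone was recognised, at 1.23 FPKM in growth and 0.996 FPKM at 120 h, and Col2a1, Acan and Comp had no recognised transcript. Their part in the levels of Spp1, Runx1 and Sox9 was not tested.

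Among 9319 protein-coding genes, those whose summed profile over the 4 libraries lay nearest to each factor were sought by the distance between centred log2(FPKM + 1) values. Spp1 was nearest to Spdl1, Mad2l1 and Pnp, at distances of 0.135, 0.153 and 0.154. Pparg was nearest to Kcnmb4, Ccnd1 and Hhip, at 0.211, 0.216 and 0.302. Among the nearest to Sp7 were Slc25a10 and Gclm, at 0.122 and 0.157. Runx1 was nearest to Eif4e2, Galnt18 and Nfkb2, at 0.0754, 0.0865 and 0.0878. The nearest to Runx2 were Hsp90aa1, Pdss1 and Ruvbl1, to Gata4 Zfp687, Rbm15 and Simc1, and to Sox9 Zbtb7a, Cox7b and Zfpl1. The profiles of Runx1, Runx2, Pparg, Gata4 and Sox9 hold a 120 h sum that stands above the FPKM through the introns. For Gata4 the introns carried part of it, with a log2 ratio of 0.62 at 120 h against 60 h. With 4 points a profile is matched by many genes, and nothing is implied of shared control.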

How the data were processed

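Messenger RNA selected by its poly(A) tail was fragmented with heat and metal ions, reverse transcribed from random hexamers and read from both ends, per the labels' protocols, which describe no marking of strand. The authors deposited, for each library, assembled transcripts with an RPKM and its limits, held as text; as read pairs are counted once, FPKM is the term used below. The submitters' processing notes list TopHat 1.0.13 and Cufflinks 0.8.0 without saying what each did. The build of the genome was not given in the sources used here. In genes with 1 transcript a deposited limit is 2 times the square root of the fragments away from its value, from which each library's size was worked out. Such limits cover counting error only.

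Gene names came from the GENCODE M21 annotation (GRCm38), matched by runs of intron, exon and intron lengths and never by coordinates. Of 137519 introns, 122633 were named by such runs and 5383 by their own length between 3 named introns on each side; Sp7 and Nkx2-5 were named in the second way alone. Single-exon transcripts went to a gene whose assembled exons held at least 50% of them. FPKM was summed over the transcripts of a gene, with limits added in quadrature. A gene with no recognised transcript was taken as 0 by the sum and through the introns alike, and no fold is given against it. Such a gene may be expressed and unnamed, so a call against it by both measures rests on the same absence. For the FPKM through the introns, the FPKM of the transcripts holding an intron was summed for each intron, and the median over introns was taken. The size rule used a pseudocount of 1, a 2-fold difference and a minimum of 1 FPKM. Naming and rule were tested on simulated data, with 1 intact annotated transcript for each of a set of genes already named here. That setting holds no gene assembled in pieces, so it cannot show how the rule treats such genes. Shared 50-base words were used to find copies in other annotated genes. The alternatives tried were another pseudocount, other minimums, a 4-fold rule, 3 other gene measures and a rescaling of the libraries.

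The members, the 7 context lists and the 7 marker lists were chosen with earlier results of these data known, as were the transcript choices and the positions read for Cebpb and Ppara. Context genes named in the text are the up to 4 per list with the largest ratio among those that passed the rule at 60 h or at 168 h against growth; exceptions are said to be such. Some genes that this choice or the likeness of profiles would name are not reported here. Python 3.11.15, numpy 2.4.6, pandas 2.3.3 and matplotlib 3.10.9 were used.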

Additional observations from a re-analysis of the deposited data

How the results depend on the processing

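No paired analysis was possible because each time point has 1 library and the labels give no replicate numbers. The 8 factors gave 252 log2 ratios under other settings, of which 220 stayed on their side of the size rule, 26 lost the call, 1 gained it and 5 were called ratios that changed sign. Among the 220, 204 kept their sign and 16, in Runx1, Sp7, Pparg, Gata4, Nkx2-5 and Sox9, were ratios under the rule that changed it, to values between -0.25 and 0.34. The count of 5 that fell at 60 h against growth was 2 under a 4-fold rule. The count of 3 that rose at 120 h against 60 h was 0 under a 4-fold rule, 0 through the introns, 0 over the union of exons (a measure chosen after seeing the data), 1 with multi-exon transcripts alone and 1 after median-ratio rescaling. The count of 2 that fell at 168 h against 120 h was 0 under a 4-fold rule, through the introns, with multi-exon transcripts alone and over the union of exons.

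Signs of called ratios changed at 120 h against 60 h for Runx2 through the introns (log2 ratio -0.067) and for Sox9 through the introns and with multi-exon transcripts alone (-0.0736 in both) and over the union of exons (-0.16), and at 168 h against 120 h for Pparg through the introns (0.0461). In those 3 genes the sum at 120 h holds single-exon pieces. Counted through the main first intron alone, the first donors of Pparg in growth took 73.6% and 26.4%, against 83.4% and 16.6%; fewer transcripts enter. The fall of Runx2 at 168 h against growth had a log2 ratio of -0.98 after median-ratio rescaling, under the rule. That rescaling moved the median log2 ratio of all genes at 60 h against growth to 0.02, from -0.18 as deposited. The 120 h library is the shallowest, and Sp7, Pparg and Nkx2-5 rest on few fragments there.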
